A study of Homo sapiens with 6 samples.

Results

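The 30 genes described here are a set of the p53 pathway: direct transcriptional targets of the transcription factor p53, among them the inhibitors through which the pathway limits itself. They were taken by gene symbol from the authors' table of read counts, which lists 58735 genes, and all 30 were found. RNA-seq had been carried out on A549, a cell line of human lung adenocarcinoma. The IL17D-overexpressing cells (3 libraries) carried a lentiviral vector in which the human PGK promoter drives IL17D, amplified from cDNA of the lung cancer line H82, with GFP behind an internal ribosome entry site. The control cells (3 libraries) were A549 cells with the empty vector, so that all 6 libraries come from transduced cells grown in the same serum-containing medium. No DNA-damaging treatment is described for either group. Neither the labels nor the methods say whether a group is 1 clone or whether its replicates were separate transductions or cultures, so that p-values measure the spread between these libraries, which may be technical. The comparison asked how the mRNA of p53 pathway genes differed between IL17D-overexpressing and control cells.

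p53 is held at a low level by the ubiquitin ligase MDM2, and it accumulates when DNA damage, ribosome defects or oncogene activity releases it. It then binds DNA as a tetramer at pairs of a short repeat and raises transcription of genes that stop the cell cycle, repair DNA, change metabolism or start cell death. Several of its targets, MDM2 and the phosphatase gene PPM1D among them, switch p53 off again. A549 cells are known to have lost the CDKN2A locus, which encodes an inhibitor of MDM2.

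Total counts lay between 14319398 and 16521021 per library. Levels are given as CPM, counts scaled to a common library size after TMM, a correction for library composition. IL17D itself averaged 1.61 ± 0.450 CPM with the empty vector and 1911 ± 40.6 CPM with IL17D (SD, n = 3 each). The epithelial genes KRT7, KRT8 and KRT18 were at 1569.6 CPM or more in every library, whereas EPCAM was at 0.622 to 1.31 CPM. CDH1, which encodes E-cadherin, was lower with IL17D, by a log2 difference of -0.28 (edgeR, adjusted p = 0.031). Markers of other cell types were at 0 counts in every library for PTPRC and CD3E, at 0 to 0.187 CPM for PECAM1 and VWF, and at up to 1.22 CPM for CD14, CD79A and COL3A1, while COL1A1 was at 19.2 to 24.2 CPM. CDKN2A had 0 counts in all 6 libraries, which for counting error alone leaves room for 3 counts, or 0.182 to 0.210 CPM.

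Of the 30 genes, 1 passed the test in IL17D-overexpressing cells. TNFRSF10B, a receptor for the death ligand TRAIL, rose by 12.7%, and no gene of the set was called lower. The quasi-likelihood test of edgeR was fitted over the 15754 genes with enough counts, all 30 of the set among them, and a gene was called where the adjusted p was under 0.05. Of all tested genes, 0.673% were called higher and 0.908% were called lower at this threshold, which for 30 genes corresponds to fewer than 1 call in each direction. The groups by role described below hold 8 genes or fewer, so that 0 calls in a group is near these shares. TNFRSF10B was also the single gene of the set called by DESeq2's Wald test and by limma voom, and neither called a gene of the set lower. At an unadjusted p under 0.05 in edgeR's test, 4 of the 30 genes were higher (TNFRSF10B, TNFRSF10A, AEN and GADD45A) and 0 were lower, against 5.59% of all tested genes higher and 5.99% lower. All 3 IL17D-overexpressing libraries lay above all 3 control libraries for 8 of the 30 genes and below them for 0, against 7.48% above and 8.31% below among all tested genes. The 8 genes were TNFRSF10B, TNFRSF10A, AEN, GADD45A, MDM2, RRM2B, PLK2 and DDB2. The 30 genes had a median standard error of 0.063, against 0.096 for all tested genes. Their median level in control cells was 48.9 CPM, against 19.7 CPM, so that these shares were not compared at like precision. In bulk RNA, fewer cells that express a gene and less of its RNA per cell cannot be told apart.

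The differences were small. The log2 fold changes of the 30 genes ran from -0.14 for TIGAR to 0.19 for TNFRSF10A, with a median of 0.042, and 22 were above 0 and 8 below. Over all tested genes the median was -0.00044, and 7858 of 15754 lay above 0. The median of the absolute log2 fold change was 0.064 for the 30 genes and 0.084 for all tested genes, whose median level in control cells was lower (19.7 CPM, against 48.9 CPM for the 30 genes). These values are descriptions, and no test was made over the set. For each of the 30 genes the 95% interval of the log2 fold change excluded a change of 1.5-fold in either direction, with the widest limits at -0.57 for TIGAR and 0.41 for SESN1. The summed level of the 30 genes was 2120.2 to 2152 CPM in the control libraries and 2220.2 to 2259 CPM in the IL17D-overexpressing libraries. Without TNFRSF10B it was 1763 to 1816 CPM and 1837 to 1871 CPM, and the groups did not overlap in either sum.

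**Figure D1:**
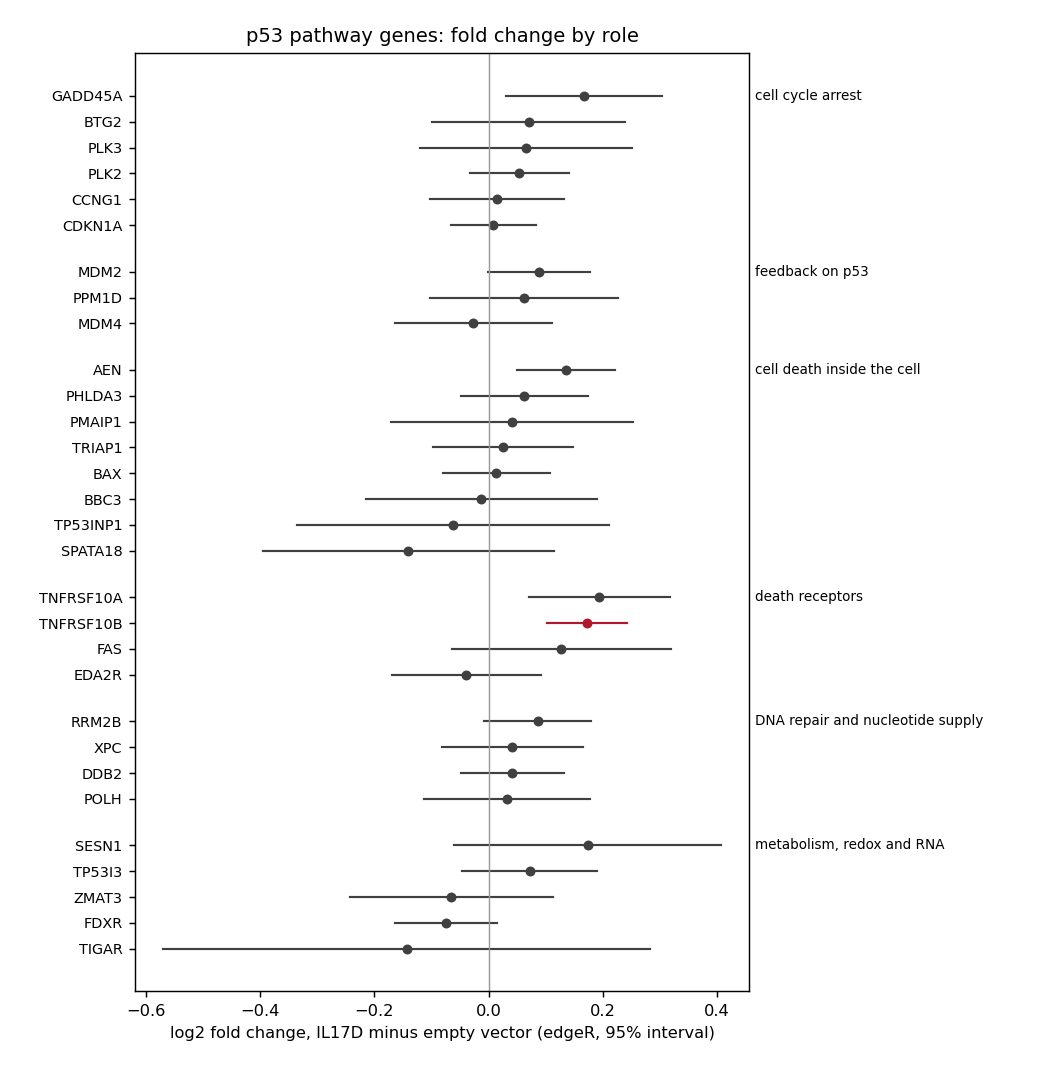
Log2 fold change of each of the 30 p53 pathway genes (x axis, IL17D-overexpressing minus control, 3 libraries each) with its 95% interval from edgeR, grouped by role and ordered within each role. TNFRSF10B, in red, is the 1 gene with an adjusted p under 0.05, and all 30 intervals lie between -0.57 and 0.41.

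The death receptors were the group with the largest differences, with a median log2 fold change of 0.15 over 4 genes, of which 1 was called higher and 0 lower. TNFRSF10B (ENSG00000120889, chromosome 8 of GRCh38, 23020133 to 23069179) encodes TRAIL-R2, also known as DR5, which on binding TRAIL assembles the complex that activates caspase-8. It had 330.4, 336 and 357 CPM in control replicates 1, 2 and 3 and 388, 383 and 382 CPM in IL17D-overexpressing replicates 1, 2 and 3. The 3 IL17D-overexpressing libraries were all above the highest control library, and they lay closer together than the controls. The mean was 341 ± 14.0 CPM with the empty vector and 384 ± 3.30 CPM with IL17D (SD, n = 3 each). Its log2 fold change was 0.17 (standard error 0.034, 95% interval 0.10 to 0.24, adjusted p = 0.0031 in edgeR's test). The adjusted p ranged from 0.00014 to 0.033 over the alternatives, and was highest without IL17D-overexpressing replicate 1.

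TNFRSF10A (ENSG00000104689, chromosome 8 of GRCh38, 23190452 to 23225126) encodes TRAIL-R1 (DR4), the other TRAIL receptor that carries a death domain. It had 50.2, 49.8 and 46.3 CPM in control replicates 1, 2 and 3 and 58.8, 54.4 and 53.9 CPM in IL17D-overexpressing replicates 1, 2 and 3. The groups did not overlap, and its log2 fold change was 0.19 (standard error 0.061, 95% interval 0.070 to 0.32, adjusted p = 0.116 in edgeR's test), so that TNFRSF10A had a larger fold change than TNFRSF10B and did not pass the threshold. FAS, which encodes the receptor for FAS ligand, had 22.3, 18.7 and 25.4 CPM in control replicates 1, 2 and 3 and 25.3, 24.8 and 22.6 CPM in IL17D-overexpressing replicates 1, 2 and 3. The control libraries of FAS spread more widely than the others and spanned all 3 IL17D-overexpressing values, and its log2 fold change was 0.13 (95% interval -0.065 to 0.32, adjusted p = 0.678 in edgeR's test). EDA2R, an X-linked receptor for ectodysplasin A2, had a log2 fold change of -0.039 (95% interval -0.17 to 0.091, adjusted p = 0.886 in edgeR's test).

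The genes of the TRAIL receptors lie side by side on chromosome 8, where TNFRSF10C and TNFRSF10D encode decoy receptors without a working death domain. Both were on the list of other p53 targets, and they are described here because they neighbour TNFRSF10A and TNFRSF10B, a choice made after values were seen. TNFRSF10D (ENSG00000173530, chromosome 8 of GRCh38, 23135588 to 23164030) had 40.6, 43.3 and 43.0 CPM in control replicates 1, 2 and 3 and 52.6, 44.6 and 49.5 CPM in IL17D-overexpressing replicates 1, 2 and 3. All IL17D-overexpressing libraries were above all controls, as for TNFRSF10A and TNFRSF10B, and the log2 fold change was 0.21 (95% interval 0.074 to 0.34, adjusted p = 0.125 in edgeR's test). TNFRSF10C had 2 to 10 counts per library and was not tested. Of the 31-base stretches in the annotated transcripts, 0.204% for TNFRSF10A and 0.348% for TNFRSF10B also occur in another gene of the family, and 3.22% and 3.32% in any other gene. The part of shared reads in these differences was not tested, and no such share was computed for TNFRSF10D. The counting is not stated to use strand, and 16.6% of the exonic bases of TNFRSF10A are shared with opposite-strand genes, against 1.30% for TNFRSF10B. The opposite-strand gene TNFRSF10A-AS1 had 4.58 ± 0.456 CPM with the empty vector and 5.85 ± 0.968 CPM with IL17D (SD, n = 3 each). Its groups overlapped, and its log2 fold change was 0.35 (95% interval -0.0078 to 0.71, adjusted p = 0.450 in edgeR's test). For AC100861.1, which also overlaps TNFRSF10A, it was 0.047 (95% interval -0.29 to 0.39, adjusted p = 0.957 in edgeR's test). RHOBTB2, which overlaps TNFRSF10B, had a log2 fold change of -0.036 (95% interval -0.23 to 0.15, adjusted p = 0.938 in edgeR's test).

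**Figure D2:**
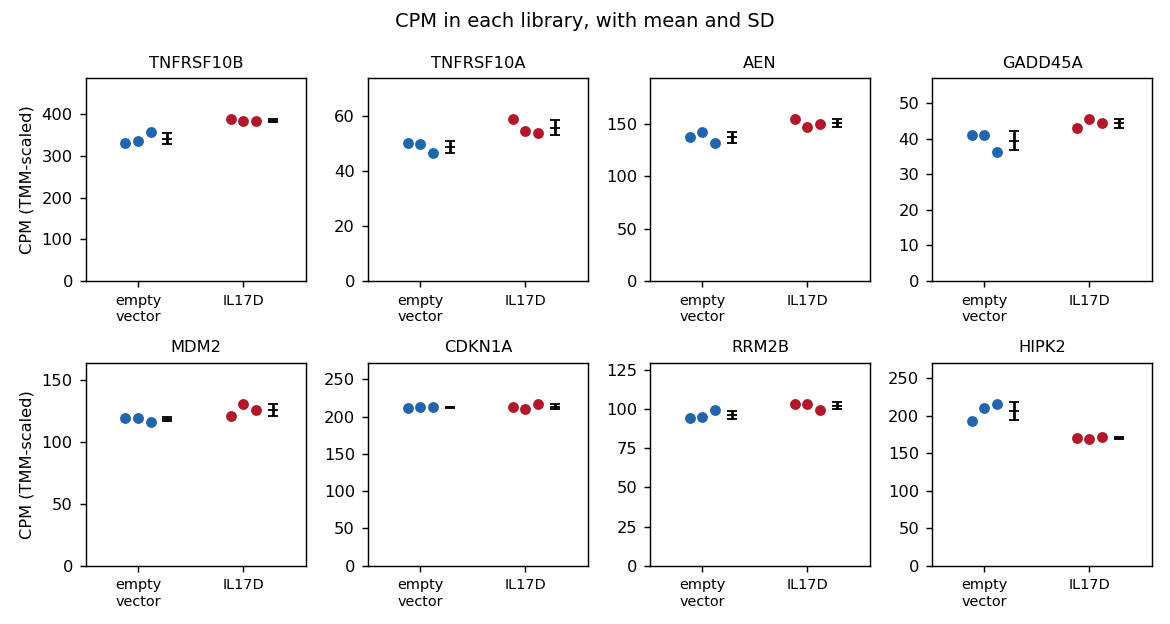
CPM in each library (y axis, from 0) of TNFRSF10B, TNFRSF10A, AEN, GADD45A, MDM2, CDKN1A, RRM2B and HIPK2 in control (blue) and IL17D-overexpressing cells (red), with mean and SD of 3 libraries in black. The groups are apart for each gene but CDKN1A, and the distance between them is small against the level. The genes shown were picked. Of the 30 genes of the set, 8 had groups apart, all of them higher, against 7.48% higher and 8.31% lower among all tested genes.

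Among the 6 genes of cell cycle arrest, 0 passed edgeR's, DESeq2's or voom's test, and 1 had an unadjusted p under 0.05 in edgeR's test. CDKN1A (ENSG00000124762, chromosome 6 of GRCh38, 36676460 to 36687339) encodes p21, the inhibitor of cyclin-dependent kinases that carries out most of the p53-dependent arrest, and is the target most often used as a readout of p53 activity. It had 211, 213 and 212 CPM in control replicates 1, 2 and 3 and 213, 210.0 and 217 CPM in IL17D-overexpressing replicates 1, 2 and 3. The 6 libraries could not be ordered by group, and its log2 fold change was 0.0082 (standard error 0.037, 95% interval -0.066 to 0.083, adjusted p = 0.970 in edgeR's test). Among the 29 genes of the set that were not called, CDKN1A had the narrowest interval. GADD45A (ENSG00000116717, chromosome 1 of GRCh38, 67685061 to 67688338), whose product acts in arrest before mitosis and in DNA repair, had 41.0, 41.0 and 36.2 CPM in control replicates 1, 2 and 3 and 42.9, 45.5 and 44.4 CPM in IL17D-overexpressing replicates 1, 2 and 3. All IL17D-overexpressing libraries were above the controls, and its log2 fold change was 0.17 (standard error 0.067, 95% interval 0.031 to 0.30, adjusted p = 0.292 in edgeR's test). Control replicate 3 was the lowest library of GADD45A, and without it the log2 fold change was 0.11, with an adjusted p of 0.585 in edgeR's test.

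PLK2, a polo-like kinase of the centriole cycle, was at 120.2 ± 2.23 CPM with the empty vector and 125 ± 1.15 CPM with IL17D (SD, n = 3 each). The PLK2 groups did not overlap, and the log2 fold change was 0.054 (95% interval -0.032 to 0.14, adjusted p = 0.700 in edgeR's test). The related kinase gene PLK3 had a log2 fold change of 0.066 (95% interval -0.12 to 0.25, adjusted p = 0.864 in edgeR's test). For BTG2, an antiproliferative factor that also promotes mRNA decay, the value was 0.070 (95% interval -0.10 to 0.24, adjusted p = 0.828 in edgeR's test). CCNG1, which encodes cyclin G1, a partner of the phosphatase that acts on MDM2, had 0.014 (95% interval -0.10 to 0.13, adjusted p = 0.963 in edgeR's test). All 6 genes of this group had a log2 fold change above 0, and those of CDKN1A and CCNG1 turned below 0 when 1 library was left out.

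The genes that feed back on p53 did not pass the test (0 of 3 in edgeR, DESeq2 and voom, and 0 of 3 at an unadjusted p under 0.05 in edgeR). Over all tested genes, edgeR called 0.673% higher and 0.908% lower. At the unadjusted threshold the shares were 5.59% and 5.99%, so that 0 of 3 is near them. MDM2 (ENSG00000135679, chromosome 12 of GRCh38, 68808176 to 68850686), the ubiquitin ligase that targets p53 for degradation, had 119, 119 and 116 CPM in control replicates 1, 2 and 3 and 121, 131 and 125 CPM in IL17D-overexpressing replicates 1, 2 and 3. Each IL17D-overexpressing library of MDM2 was above each control library, the lowest by little, and its log2 fold change was 0.088 (standard error 0.044, 95% interval -0.0015 to 0.18, adjusted p = 0.446 in edgeR's test). Of the 31-base stretches in MDM2 transcripts, 13.2% also occur in other genes. MDM4, the relative of MDM2 that binds p53 and masks its activation domain, had a log2 fold change of -0.027 (95% interval -0.16 to 0.11, adjusted p = 0.936 in edgeR's test). For PPM1D, whose phosphatase WIP1 reverses damage signalling, it was 0.062 (95% interval -0.10 to 0.23, adjusted p = 0.849 in edgeR's test). MDM2 and CDKN1A, the pair of targets commonly read together, thus had log2 fold changes of 0.088 and 0.0082.

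**Figure D3:**
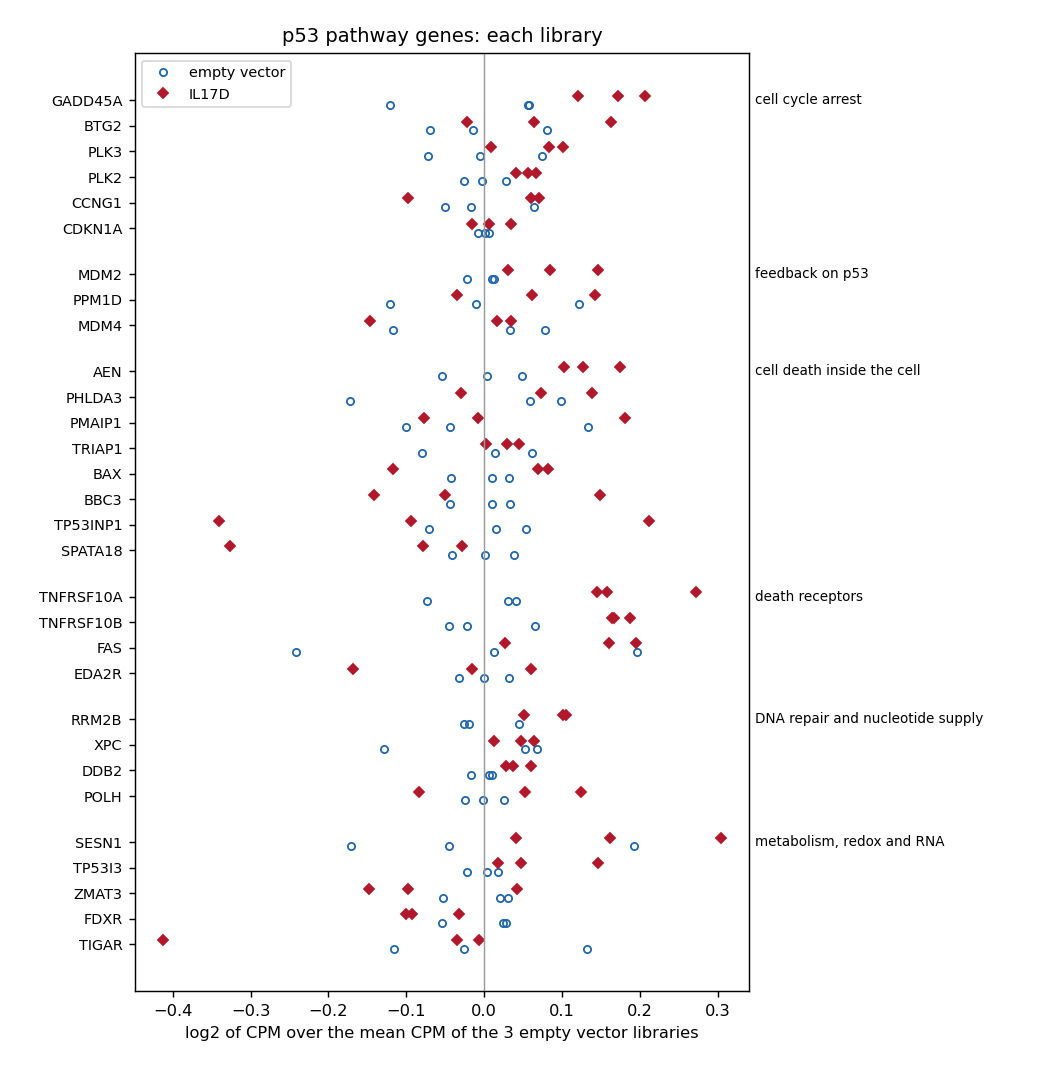
Log2 of the CPM of each library over the mean of the 3 control libraries (x axis) for the 30 genes, with controls as open blue circles and IL17D-overexpressing libraries as red diamonds. Red lies wholly to the right of blue for 8 genes, TNFRSF10B, TNFRSF10A, AEN, GADD45A, MDM2, RRM2B, PLK2 and DDB2, and wholly to the left for none.

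Of the 8 genes that act in cell death inside the cell, 0 passed in edgeR, DESeq2 or voom, and 1 had an unadjusted p under 0.05 in edgeR's test. AEN (ENSG00000181026, chromosome 15 of GRCh38, 88621296 to 88632282), an exonuclease that degrades DNA during apoptosis, had 137, 142 and 132 CPM in control replicates 1, 2 and 3 and 154, 147 and 149 CPM in IL17D-overexpressing replicates 1, 2 and 3. The groups did not overlap, and its log2 fold change was 0.14 (standard error 0.042, 95% interval 0.050 to 0.22, adjusted p = 0.113 in edgeR's test). Its adjusted p ranged from 0.099 to 0.398 over the alternatives and was never under the threshold. The genes that act on the mitochondrial membrane had smaller differences. BAX, which forms pores in that membrane, was at 144 ± 3.85 CPM with the empty vector and 146 ± 11.0 CPM with IL17D (SD, n = 3 each), with a log2 fold change of 0.014 (95% interval -0.080 to 0.11, adjusted p = 0.954 in edgeR's test). BBC3 (PUMA) and PMAIP1 (NOXA), proteins with a BH3 domain that free BAX to act, had -0.012 (95% interval -0.21 to 0.19, adjusted p = 0.985 in edgeR's test) and 0.041 (95% interval -0.17 to 0.25, adjusted p = 0.937 in edgeR's test). The direction of BAX, BBC3 and PMAIP1 depended on single libraries.

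PHLDA3, an inhibitor of AKT, had a log2 fold change of 0.063 (95% interval -0.048 to 0.17, adjusted p = 0.734 in edgeR's test), and its lowest library was control replicate 3. For TRIAP1, a small mitochondrial protein that counters apoptosis, the value was 0.026 (95% interval -0.10 to 0.15, adjusted p = 0.929 in edgeR's test). TP53INP1, which helps p53 to activate death genes, had 10.0, 10.3 and 9.45 CPM in control replicates 1, 2 and 3 and 7.84, 9.31 and 11.5 CPM in IL17D-overexpressing replicates 1, 2 and 3. Its IL17D-overexpressing libraries lay on both sides of all controls, and the log2 fold change was -0.062 (95% interval -0.34 to 0.21, adjusted p = 0.920 in edgeR's test). SPATA18, involved in mitochondrial quality control, had -0.14 (95% interval -0.40 to 0.11, adjusted p = 0.743 in edgeR's test), and its lowest library was IL17D-overexpressing replicate 1, at 8.27 CPM against 10.1 to 10.6 CPM in the controls.

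Genes of DNA repair and nucleotide supply had log2 fold changes above 0 in 4 of 4 cases, none of which passed in edgeR, DESeq2 or voom, and 0 had an unadjusted p under 0.05 in edgeR's test. RRM2B, the p53-dependent subunit of ribonucleotide reductase, was at 96.4 ± 2.61 CPM with the empty vector and 102 ± 2.12 CPM with IL17D (SD, n = 3 each), and its log2 fold change was 0.086 (95% interval -0.0077 to 0.18, adjusted p = 0.490 in edgeR's test). DDB2, which recognises ultraviolet lesions, was at 107 ± 1.10 CPM with the empty vector and 109.9 ± 1.23 CPM with IL17D (SD, n = 3 each), with 0.042 (95% interval -0.048 to 0.13, adjusted p = 0.795 in edgeR's test). The libraries of RRM2B and of DDB2 did not overlap between groups, although by small gaps, from 99.4 CPM in the highest control to 99.8 CPM in the lowest IL17D-overexpressing library for RRM2B and from 108 to 109 CPM for DDB2. XPC, another sensor of damaged DNA, had 0.042 (95% interval -0.081 to 0.16, adjusted p = 0.869 in edgeR's test), and POLH, a polymerase that copies past lesions, had 0.032 (95% interval -0.11 to 0.18, adjusted p = 0.923 in edgeR's test). XPC shares 30.4% of its exonic bases with opposite-strand genes.

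The 5 genes of metabolism, redox balance and RNA control went in both directions, with 2 above 0 and 3 below, none called in edgeR, DESeq2 or voom and 0 at an unadjusted p under 0.05 in edgeR. SESN1, a sestrin that restrains mTORC1, had 12.5, 14.7 and 11.4 CPM in control replicates 1, 2 and 3 and 14.4, 13.3 and 15.9 CPM in IL17D-overexpressing replicates 1, 2 and 3. Control replicate 2 of SESN1 was above the 2 lowest IL17D-overexpressing libraries, and the log2 fold change was 0.17 (95% interval -0.060 to 0.41, adjusted p = 0.628 in edgeR's test). For TP53I3 (PIG3), a quinone oxidoreductase, it was 0.072 (95% interval -0.046 to 0.19, adjusted p = 0.707 in edgeR's test). FDXR, the mitochondrial ferredoxin reductase, was at 125 ± 3.94 CPM with the empty vector and 118 ± 3.11 CPM with IL17D (SD, n = 3 each), with -0.074 (95% interval -0.16 to 0.015, adjusted p = 0.558 in edgeR's test). ZMAT3, an RNA-binding regulator of splicing, had -0.065 (95% interval -0.24 to 0.11, adjusted p = 0.860 in edgeR's test). TIGAR, a phosphatase that lowers glycolytic flux, was the lowest gene of the set, with 47 to 67 counts per library and a log2 fold change of -0.14 (95% interval -0.57 to 0.28, adjusted p = 0.871 in edgeR's test). TIGAR shares 45.6% of its exonic bases with overlapping genes, and AC008012.1, which lies over it on the same strand, had 0 counts in all libraries. How reads from shared exons were counted is not stated. The 0 counts therefore do not show whether the overlap lowered the count of TIGAR.

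Per length, the order of the 30 genes in control cells was led by CDKN1A at 69.6 ± 0.355 RPKM (CPM per kilobase of exons; SD, n = 3), followed by TNFRSF10B at 66.1 ± 2.71 and BAX at 55.8 ± 1.49 RPKM. Each of these steps was larger than the sum of the SDs of the neighbours. PHLDA3, TRIAP1 and FDXR came next at 35.2 ± 3.47, 34.9 ± 1.73 and 34.6 ± 1.09 RPKM and did not differ beyond their SDs. In the middle of the order, TP53I3, AEN and DDB2 lay close together at 23.2 ± 0.325, 22.7 ± 0.813 and 21.8 ± 0.225 RPKM, and CCNG1, GADD45A, RRM2B and TNFRSF10A formed an unbroken series from 20.1 ± 0.829 to 16.5 ± 0.715 RPKM in which no neighbours differed beyond their SDs. MDM2 was lower, at 8.89 ± 0.120 RPKM, and not apart from BTG2 at 9.04 ± 0.480 RPKM. The length counts the exons of all annotated transcripts, 13284 bases for MDM2 and 2757 bases for BTG2. The order thus depends on the annotated length, and by CPM MDM2 was at 118 and BTG2 at 24.9 in control cells. PPM1D, PLK3, BBC3 and FAS could not be ordered, at 5.59 ± 0.474, 5.53 ± 0.283, 5.52 ± 0.151 and 5.21 ± 0.781 RPKM. The lowest were TP53INP1 at 1.75 ± 0.0765 and TIGAR at 0.947 ± 0.0833 RPKM.

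The short repeat to which p53 binds was looked for in promoter windows that reach from 250 bases before the start of a gene to 50 bases after it (RefSeq, GRCh38.p14). The search took the consensus 10-base repeat of the p53 response element without mismatches, and since the consensus is its own reverse complement, both strands were covered by it. Windows were at hand for 24 of the 30 genes, and 3 of the 24 (12.5%) held the repeat, against 6.63% of all 35116 windows. None of the 24 held a pair of repeats with at most 13 bases between them, an arrangement present in 10 of all 35116 windows (0.0285%). At so low a share, its absence from 24 windows says nothing about these genes. Repeats with mismatches, and repeats outside the windows, were not searched for. The 3 stretches are shown because they are the places in these windows where the letters of the binding repeat occur, with the repeat in capitals and 10 bases on each side.
AEN, chr15:88621296-88621325, plus strand: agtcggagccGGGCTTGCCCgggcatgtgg
FDXR, chr17:74872986-74873015, minus strand: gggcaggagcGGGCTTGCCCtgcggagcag
PLK2, chr5:58460199-58460228, minus strand: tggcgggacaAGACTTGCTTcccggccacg
The repeat began 34 bases before the RefSeq start of AEN, 11 bases before that of FDXR and 132 bases before that of PLK2, and AEN and FDXR had the same 10 letters. In the gene annotation GENCODE 29, all 30 bases of each stretch are exonic and lie within the span of the gene. The stretches are thus upstream of the RefSeq start only. Their log2 fold changes were 0.14 for AEN, 0.054 for PLK2 and -0.074 for FDXR, and none of them was called. A match is a description of letters, not a measured binding site.

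Genes that act on p53 were read from a list of 24, of which 23 were tested, 0 were called higher and 1 was called lower. The shares over all tested genes were 0.673% higher and 0.908% lower. HIPK2 (ENSG00000064393, chromosome 7 of GRCh38, 139561570 to 139777778), a kinase that phosphorylates p53 to favour cell death, had 193, 209.7 and 216 CPM in control replicates 1, 2 and 3 and 169.5, 169 and 172 CPM in IL17D-overexpressing replicates 1, 2 and 3. The highest IL17D-overexpressing library was below the lowest control, and its log2 fold change was -0.28 (standard error 0.041, 95% interval -0.36 to -0.19, adjusted p = 4.8e-05 in edgeR's test). HIPK2 was called in each of the 12 alternatives, with an adjusted p of at most 0.0011 in edgeR's test without IL17D-overexpressing replicate 1. The 22 other tested genes of the list, which include the damage kinases ATM, ATR, CHEK1 and CHEK2 and the ribosomal proteins that hold back MDM2, RPL5 and RPL11, were not called, although HEXIM1 was called as well when IL17D-overexpressing replicate 2 was left out. Of all 23, 15 had a log2 fold change above 0, and the median was 0.018.

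Other p53 targets were read from a list of 34 genes, of which 31 were tested, 2 were called higher and 2 were called lower. Of all tested genes, 0.673% were called higher and 0.908% lower. At an unadjusted p under 0.05 in edgeR's test, 6 of the 31 were higher and 2 lower, against 5.59% and 5.99% of all tested genes. The IL17D-overexpressing libraries all lay above the controls for 7 genes and all below for 3, against 7.48% and 8.31% of tested genes. IGFBP3, a secreted protein that binds insulin-like growth factors, rose, at 2118 ± 63.5 CPM with the empty vector and 2382 ± 51.2 CPM with IL17D (SD, n = 3 each), with a log2 fold change of 0.17 (95% interval 0.12 to 0.22, adjusted p = 8.8e-05 in edgeR's test). TRAF4, a signalling adaptor, was at 123 ± 11.1 CPM with the empty vector and 142 ± 2.42 CPM with IL17D (SD, n = 3 each), with 0.21 (95% interval 0.11 to 0.31, adjusted p = 0.014 in edgeR's test). The control libraries of TRAF4 ran from 110.4 to 132 CPM, and without control replicate 3, the lowest, the adjusted p was 0.128 in edgeR's test. Leaving out IL17D-overexpressing replicate 1 or 3 also took the call from TRAF4, with adjusted p-values of 0.068 and 0.107 in edgeR's test. The genes that fell were TP53I11, a membrane protein, with -0.25 (95% interval -0.36 to -0.14, adjusted p = 0.0064 in edgeR's test), and TSKU, a secreted antagonist of WNT and TGF-β signals, with -0.17 (95% interval -0.24 to -0.093, adjusted p = 0.0076 in edgeR's test). Each of these lost its call when 1 of 2 libraries was left out, at adjusted p-values of 0.081 (TP53I11) and 0.074 (TSKU) in edgeR's test without control replicate 1, 0.061 for TP53I11 without IL17D-overexpressing replicate 1 and 0.077 for TSKU without replicate 3. Over the 31 genes, 15 had a log2 fold change above 0, and the median was -0.0037.

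Active p53 lowers many cell cycle genes through p21 and the DREAM repressor complex, and 20 of these were read as the reverse side of the pathway. All 20 were tested, and 0 were called in either direction by edgeR, DESeq2 or voom, with 1 higher (CDK1) and 1 lower (MCM2) at an unadjusted p under 0.05 in edgeR's test. The shares over all tested genes at that unadjusted threshold were 5.59% higher and 5.99% lower. Their log2 fold changes ran from -0.12 to 0.10, with 10 above 0 and 10 below and a median of -0.0026. CDK1, the kinase that drives mitosis, had 0.10 (95% interval 0.0044 to 0.19, adjusted p = 0.400 in edgeR's test), and MCM2, a subunit of the replicative helicase, had -0.12 (95% interval -0.22 to -0.017, adjusted p = 0.328 in edgeR's test). PCNA, the sliding clamp of DNA replication that p53 can also raise, had 0.059 (95% interval -0.0056 to 0.12, adjusted p = 0.495 in edgeR's test).

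**Figure D4:**
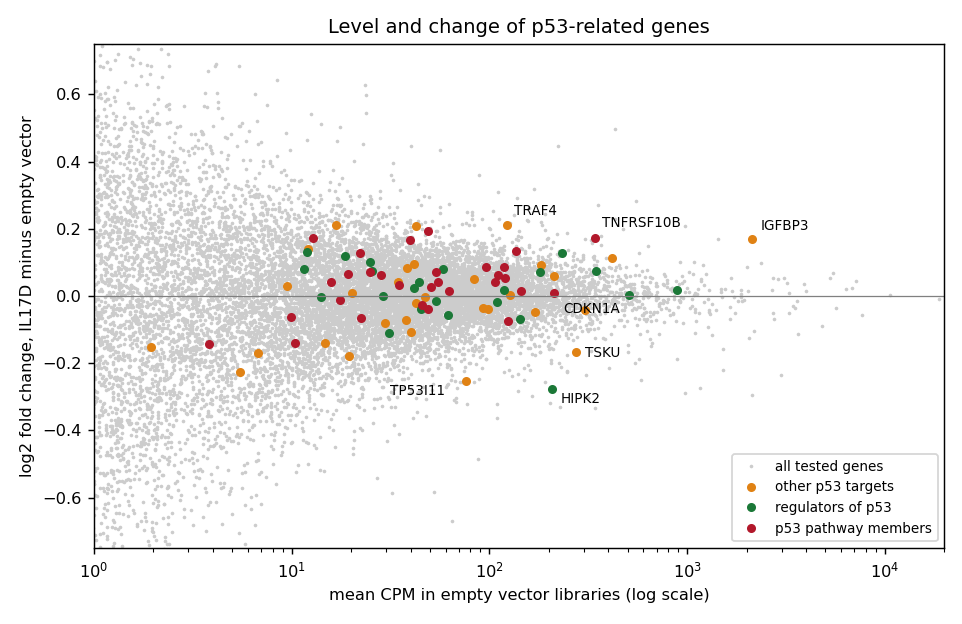
Mean CPM in control cells (x axis, log scale) against the log2 fold change (y axis) for all tested genes in grey, the 30 p53 pathway genes in red, regulators of p53 in green and other p53 targets in orange. IL17D and 1507 tested genes lie outside the plotted range, and the named genes besides CDKN1A are those with an adjusted p under 0.05.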

How the data were processed

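The labels and the methods name different Illumina instruments, and how RNA was selected for the libraries is not given in the sources used here. The authors deposited read counts per gene for 3 IL17D-overexpressing and 3 control libraries, without normalization, and all 6 columns were used. The submitters' processing notes name Bowtie2 and hg38 with no role, and the counting tool and strand setting are not given in the sources used here. The deposited gene length, in bases, equals the union of exons in GENCODE 29 for 58724 of 58735 genes.

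Genes were filtered with filterByExpr, scaled by TMM and tested with edgeR 4.0.16 (glmQLFit, glmQLFTest, no covariates), Benjamini-Hochberg adjusted over 15754 genes, two-sided. Standard errors were taken from the log2 fold change and its F statistic, and 95% intervals from them. Alternatives were DESeq2 1.42.0 (Wald test), limma 3.58.1 (voom), DESeq2's size factors, no filter, at least 10 counts in every library, a replicate block, and leaving out each library. The steps were tested on simulated data, in which the changes were larger than those of the p53-related genes called here. Recovery of changes as small as these was not tested. Libraries differed beyond counting error within groups (chi-square per degree of freedom 2.18 to 3.36) and between groups (4.88 to 6.44), and precision is limited by 3 libraries a group. The between-group values include the overexpressed IL17D itself. Its part in them was not computed, so they do not measure a difference across the other genes.

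The 30 genes and the other lists were chosen with earlier results of these data known. Values in every library were to be given for CDKN1A, MDM2 and genes of the set with an unadjusted p under 0.05, and from the other lists called genes were to be named. An item of these lists is not reported here. The library values of FAS, TP53INP1 and SESN1, and TNFRSF10C, TNFRSF10D, CDK1, MCM2 and PCNA, were added after values had been seen.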

Additional observations from a re-analysis of the deposited data

How the results depend on the processing

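The call of TNFRSF10B as the 1 gene of the set to pass, and of 0 genes as lower, was the same under all 12 alternatives, with log2 fold changes of TNFRSF10B from 0.15 to 0.21. Leaving out single libraries moved the median over the 30 genes between 0.031 and 0.054, and the number of other p53 targets called higher between 1 and 3 and called lower between 0 and 2. The number of called regulators was 1, HIPK2, under 11 of the 12 alternatives, and leaving out single libraries moved it between 1 and 2, with HEXIM1 as the other call without IL17D-overexpressing replicate 2. When single libraries were left out, the log2 fold change of 12 genes that were not called turned sign in at least 1 case, with BAX between -0.022 and 0.076, BBC3 between -0.094 and 0.051, CCNG1 between -0.014 and 0.066, CDKN1A between -0.0033 and 0.020, EDA2R between -0.092 and 0.024, MDM4 between -0.082 and 0.028, PHLDA3 between -0.017 and 0.12, PMAIP1 between -0.038 and 0.11, POLH between -0.016 and 0.089, TP53INP1 between -0.21 and 0.063, TRIAP1 between -0.012 and 0.059, and XPC between -0.019 and 0.076. Libraries with the same replicate number did not detectably deviate together over all tested genes (correlations of 0.010, -0.012 and -0.015). Such correlations cannot settle whether libraries of the same number were prepared together. With the replicate block, 1 gene of the set was called, no call changed among the 30 genes, HIPK2, IGFBP3, TRAF4, TP53I11 and TSKU, and 115 genes were called higher and 157 lower over all genes, against 106 and 143. The lowest gene of the set, TIGAR, had a standard error of 0.21, against 0.034 for TNFRSF10B, so that its low count limits what can be said of TIGAR.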
